A study of Mus musculus with 8 samples.

Results

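Pericentral hepatocyte nuclei are the nuclei of liver cells that lie around the central vein, where blood leaves the liver lobule. They were taken here from single-nucleus RNA sequencing of snap-frozen livers of male DIAMOND mice, a cross of 129A1/SvIm and C57BL/6J that develops fatty liver disease and liver cancer on a Western diet. Members were chosen on measured counts. A nucleus needed 300 or more detected genes and 3 or more unique molecular identifiers (UMIs, each tagging 1 captured RNA molecule) summed over Glul, Slc1a2, Oat, Cyp2e1 and Cyp1a2, with at least 1 of them from Glul or Slc1a2. It also needed fewer UMIs over the periportal genes Hal, Sds, Gls2, Cyp2f2 and Etnppl than over the first set, and at most 1 UMI over Ptprc, Stab2, Ptprb, Reln and Pkhd1, which mark other liver cells. The rule found 8876 members among the 59446 nuclei with 300 or more genes of 7 libraries, and 79446 such barcodes are in the 8 libraries of the series. The library with exactly 20000 barcodes, RD tumour mouse 1, was skipped. The mirror rule (3 or more UMIs over the periportal set, and more of them than over the pericentral set) gave 5794 periportal nuclei for comparison.

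All mice were fed high-fat food with fructose and glucose in the water (Western diet, WD). The WD tumour mice (n = 3) had 48 weeks of it and developed hepatocellular carcinoma. In the other mice the food was switched back to standard chow after 36 weeks (reversed diet, RD): no tumour was detected in the RD no tumour mice (n = 3), and the RD tumour group, which had tumours, is left with mouse 2 alone and enters no test. The labels give 48 weeks as the age at the end, while the series text counts 48 weeks on the diet alone, so the age is uncertain. They do not say whether the sampled piece of liver held tumour, and continued diet and tumour cannot be told apart in the comparison of WD tumour with RD no tumour. Members numbered 768, 1299 and 1728 in RD no tumour mice 1 to 3, 1845, 720 and 1311 in WD tumour mice 1 to 3, and 1205 in RD tumour mouse 2. Their summed counts ran from 2118606 to 5470507 UMIs per mouse.

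Hepatocytes differ along the path of the blood. Near the portal vein they make glucose, urea and secreted proteins. Around the central vein, Wnt ligands from endothelial cells switch on beta-catenin targets, among them Glul (glutamine synthetase, which takes up the last ammonia), Slc1a2 (a glutamate transporter), Oat (ornithine aminotransferase) and, with other regulators, the cytochromes P450 Cyp2e1 and Cyp1a2. The Glul and Slc1a2 band is only the innermost layer or so of cells, while Cyp2e1 reaches further out. Pericentral cells are also known for drug metabolism, bile acid synthesis and fat storage in fatty liver.

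Only a minority of the members looked like the innermost pericentral cells by genes outside the rule. Of the 8876 members, 4789 (54.0%) held exactly 1 UMI of Glul and Slc1a2 together, 1390 (15.7%) held 2, 703 (7.92%) held 3 to 4, and 1994 (22.5%) held 5 or more; the last are called Glul/Slc1a2-high nuclei here, a class set after the counts were seen. In the Glul/Slc1a2-high nuclei, Lgr5 (a receptor for R-spondin, which strengthens Wnt signalling) stood between 225 and 462 CPM (UMIs of the gene scaled to a common total of summed UMIs in each mouse) in the 7 mice. It stood between 17.8 and 42.1 CPM in the other hepatocyte-type nuclei (at most 1 UMI of other-cell genes, in neither zone) and at 0 to 13.4 CPM in periportal nuclei. Lhpp, a phosphatase, stood at 234 to 475 CPM against 31.5 to 70.8 in the other hepatocyte-type nuclei. Slc22a3, an organic cation transporter, stood at 57.4 to 106 CPM against 2.26 to 5.17. In members with 1 UMI the means over mice were 44.2 CPM for Lgr5, 64.1 CPM for Lhpp and 4.86 CPM for Slc22a3, close to the means of 29.1, 46.8 and 3.71 CPM in the other hepatocyte-type nuclei. Of 32 pericentral markers outside the rule, 24 were higher in Glul/Slc1a2-high nuclei than in the other hepatocyte-type nuclei in every mouse, with a median log2 ratio of 1.18. In members with 1 UMI, 10 of the 32 were higher in every mouse and the median log2 ratio was 0.14. At the edge of the rule, members with 3 UMIs of the pericentral set had 0 to 25.4 CPM of Lgr5, nuclei just outside with 2 UMIs had 0 to 38.1 CPM, and members with 4 or more had 67.4 to 252 CPM. The members are therefore a mixture, and list counts are given for all of them and for the Glul/Slc1a2-high nuclei.

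**Figure D1:**
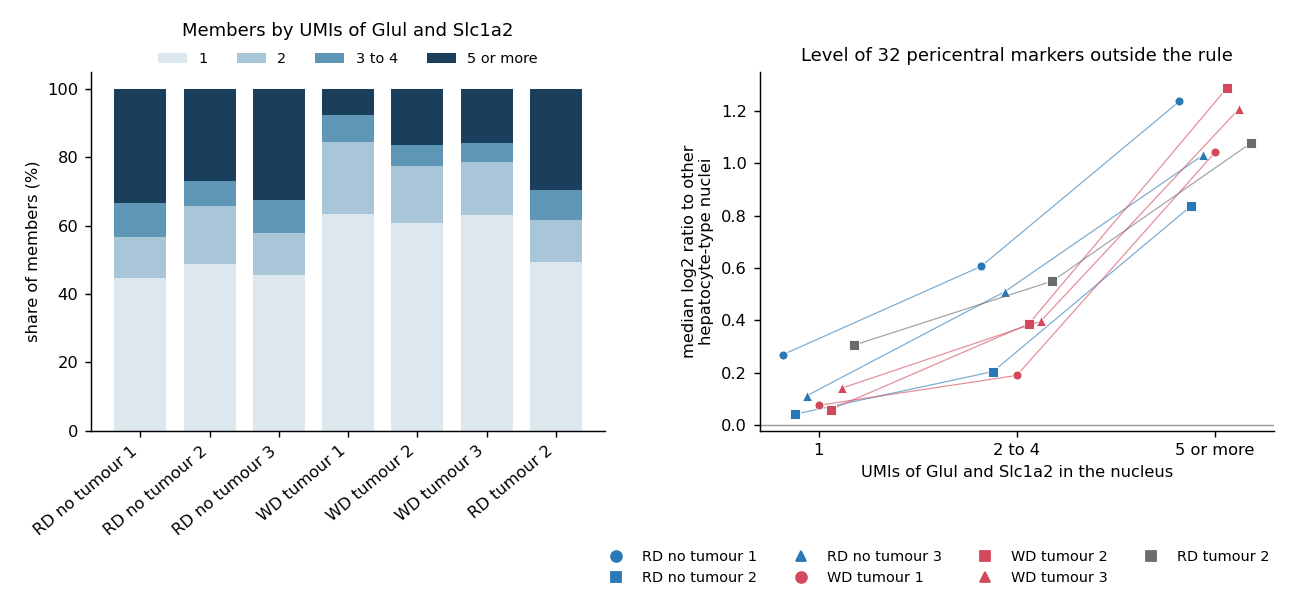
Left, share of members (%) by their UMIs of Glul and Slc1a2, 1 bar per mouse; nuclei with 5 or more make up 7.75 to 16.5% in WD tumour and 26.9 to 33.3% in RD no tumour. Right, median over 32 pericentral markers of the log2 ratio (CPM + 1) to the other hepatocyte-type nuclei, 1 point per mouse; it lies between 0.04 and 0.31 at 1 UMI and between 0.84 and 1.29 at 5 or more.

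The make-up of the members moved with the groups. Members with 1 UMI were 46.3 ± 2.21% in RD no tumour and 62.4 ± 1.37% in WD tumour (SD, n = 3 each). Slc1a2 was seen in 28.3 to 48.6% of members in WD tumour and in 58.7 to 63.8% in RD no tumour. Glul was seen in 74.7 to 86.2% and 71.6 to 75.4%. The part of depth in these shares was not tested. Members were shallower in WD tumour (median 1096 to 1426 UMIs per nucleus) than in RD no tumour (2675 to 3412), and their median mitochondrial share was 4.18 to 10.8% against 0.907 to 2.65%. The Glul/Slc1a2-high nuclei were deeper, with medians of 5480 to 6322 UMIs in WD tumour and 3700 to 5936 in RD no tumour, and their mitochondrial shares overlapped (0.847 to 2.01% and 0.546 to 1.47%). Nuclei with 3 or more UMIs of the other-cell genes, called nuclei of other cells here, also met the hepatocyte part of the rule. Their summed hepatocyte markers were 11430 to 27750 CPM, beside 13170 to 27080 CPM in Glul/Slc1a2-high nuclei. Whether the set also holds hepatocyte nuclei or doublets was not tested. Of these nuclei (median depth 1714 to 3264 UMIs), 13.7 to 49.97% met that part, above the 13.7 to 43.0% of nuclei with at most 1 such UMI in each of the 7 mice. The shares were nearly equal in RD no tumour mouse 1 (13.74 and 13.68%) and RD tumour mouse 2 (17.55 and 17.46%). After thinning every nucleus to 1000 UMIs, the shares were 3.66 to 19.7% and 7.39 to 25.6%, and the other-cell share was the lower in each mouse. As the members are a mixture, their share is no measure of true pericentral cells. Lgr5 did separate the classes: thinned, it was seen in 18.6 to 33.1% of Glul/Slc1a2-high nuclei, 0.660 to 2.65% of nuclei of other cells and 0 to 1.55% of periportal nuclei. Pairs of libraries shared 8 to 39 barcodes. The profiles of all nuclei put RD no tumour 1 and WD tumour 2 in 1 cluster and the other 5 libraries in another.

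Along the zone axis, Lgr5, Lhpp, Tbx3os1 and Cyp2c38 were the leading pericentral genes outside the rule. Zone differences follow from how the nuclei were picked, so they are described with no test, as log2 ratios of CPM + 1 in members over periportal nuclei of the same mouse. Lgr5 led, with a mean log2 ratio of 5.41 ± 1.13 (SD, n = 7 mice) and a lowest mouse of 4.03. Lhpp followed at 4.40 ± 0.94, and then the antisense transcript Tbx3os1 at 4.71 ± 0.84 with a lower lowest mouse. Cyp2c38, a P450 of the Cyp2c family, averaged 1762 CPM in members and 101 CPM in periportal nuclei. Tbx3, a T-box factor and Wnt target, averaged 76.9 against 9.88 CPM, and Axin2, the classic feedback target of beta-catenin, 25.9 against 2.42 CPM. Esrrg, an orphan nuclear receptor, averaged 193 against 14.5 CPM. The other leading genes were Rcan2, Slc22a3, Adgrg2, Nxpe2, Tafa2, Teddm2, Sult2a8 and Prex2. Cyp2c, Sult2a, Cyp2d, Cyp4a, Mup and Serpina genes belong to families of near-identical copies, and reads may have been split or lost between them.

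Grm8 (a glutamate receptor), Ncam2 (an adhesion molecule) and Bmper (a regulator of BMP signalling) led the periportal side, at 22.8 CPM in members and 163 CPM in periportal nuclei for Grm8. The other leading genes were Gldc, Plxna2, Cryl1, Fgfr1, Mmd2, Amdhd1, Aspg, Sdsl, Ftcd, Nrg4, Sfxn1 and Uroc1. Gldc, of the glycine cleavage system, averaged 65.0 CPM in members and 390 CPM in periportal nuclei. Histidine breakdown was represented by Amdhd1 (78.6 against 350 CPM), Uroc1 (87.6 against 382 CPM) and Ftcd (117 against 496 CPM), which act in the same route as the rule gene Hal. Aspg, an asparaginase, averaged 31.5 against 164 CPM. In Glul/Slc1a2-high nuclei several of these were lower still, as with Gldc at 24.1 CPM and Aspg at 9.04 CPM. Cps1, which starts the urea cycle, averaged 1152 CPM in Glul/Slc1a2-high nuclei, 3368 CPM in members with 1 UMI and 4821 CPM in periportal nuclei. Alb was not ordered this way, at 6792, 13923 and 8981 CPM in these 3 sets. Of the 32 pericentral markers, 30 were higher in members than in periportal nuclei in every mouse, and of 28 periportal markers 18 were lower in every mouse. Against this, Fgl1 and Apof, secreted proteins listed as periportal, were higher in members in every mouse, but in Glul/Slc1a2-high nuclei Fgl1 was higher in 4 mice and Apof in 1.

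**Figure D2:**
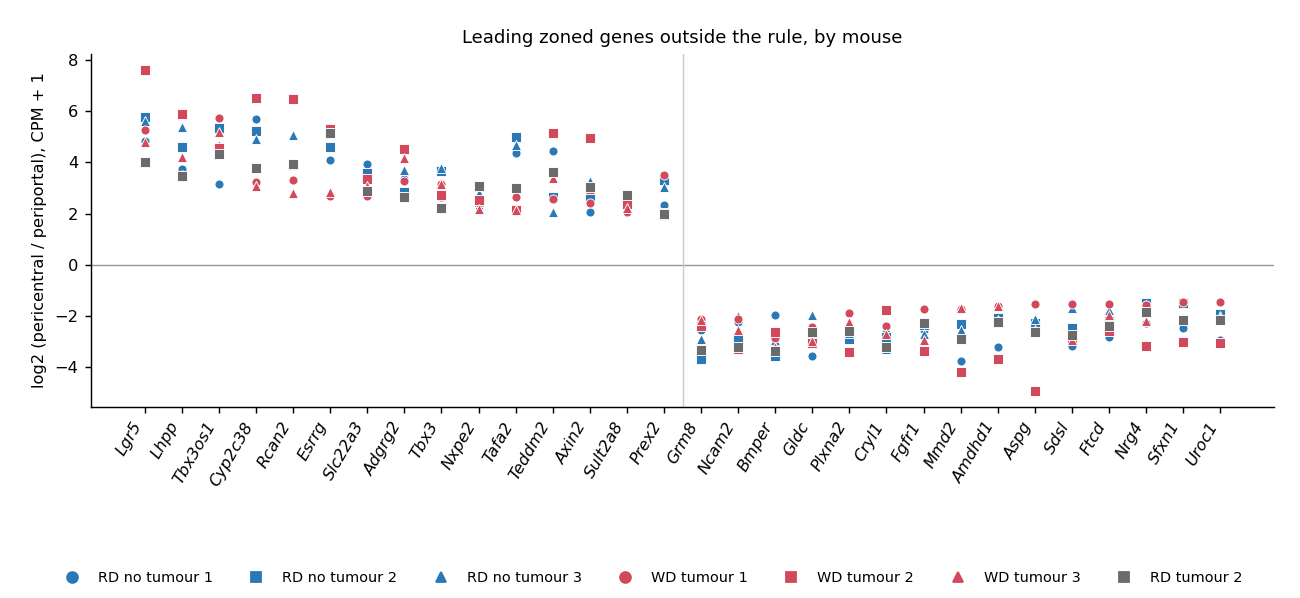
Log2 ratio of CPM + 1 in pericentral over periportal nuclei (y axis) for the 15 leading genes on each side, 1 point per mouse; every mouse lies on the same side of 0. Lgr5 runs from 4.03 upward, and Grm8 on the periportal side lies at -2.13 or lower.

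The share of nuclei that were members did not separate the groups. Thinned to 1000 UMIs, it was 4.82, 14.2 and 12.8% for RD no tumour mice 1 to 3. WD tumour mice 1 to 3 had 17.6, 6.67 and 9.62%, and the RD tumour mouse 10.6%. The groups overlap between 6.67 and 14.2%, with RD no tumour mouse 1 below that stretch and WD tumour mouse 1 above it. The mean log2 share was 0.12 higher in WD tumour, with p = 0.90 by a two-sided exact permutation test over 3 against 3 mice, where the smallest possible p is 0.10. Unthinned shares were 7.47, 21.5 and 16.7% against 28.6, 10.2 and 14.8%. Thinning left out 6.89 to 27.2% of nuclei in RD no tumour and 31.6 to 36.2% in WD tumour, which fell below the depth used. With 3 or more thinned UMIs of Glul and Slc1a2, the shares were 2.38, 4.35 and 5.96% against 3.70, 3.00 and 3.43%, and 5.12% in RD tumour mouse 2. The WD tumour values lie inside the RD no tumour range. The order of the means is then reversed, by 0.23 on the log2 scale, with exact permutation p = 0.60. Fewer cells of a type, less RNA per cell and losses in making nuclei cannot be told apart in such shares.

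The balance with periportal nuclei was uneven among the WD tumour mice. The thinned log2 ratio of pericentral to periportal nuclei was 0.52, 0.16 and 0.24 across RD no tumour, against 1.89, 3.20 and -0.06 across WD tumour. The RD tumour mouse had -0.43. WD tumour mice 1 and 2 stand above every other mouse, while mouse 3 lies below the RD no tumour mice. The mean difference was 1.37 (exact permutation p = 0.40). Without thinning the ratios were -0.09, 0.20 and 0.11 against 2.70, 3.34 and 0.92, which do not overlap, with a mean difference of 2.25 at the smallest possible p of 0.10. WD tumour mouse 2 had 71 periportal nuclei, mouse 1 had 284 and mouse 3 had 695, against 819 to 1600 in RD no tumour.

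**Figure D3:**
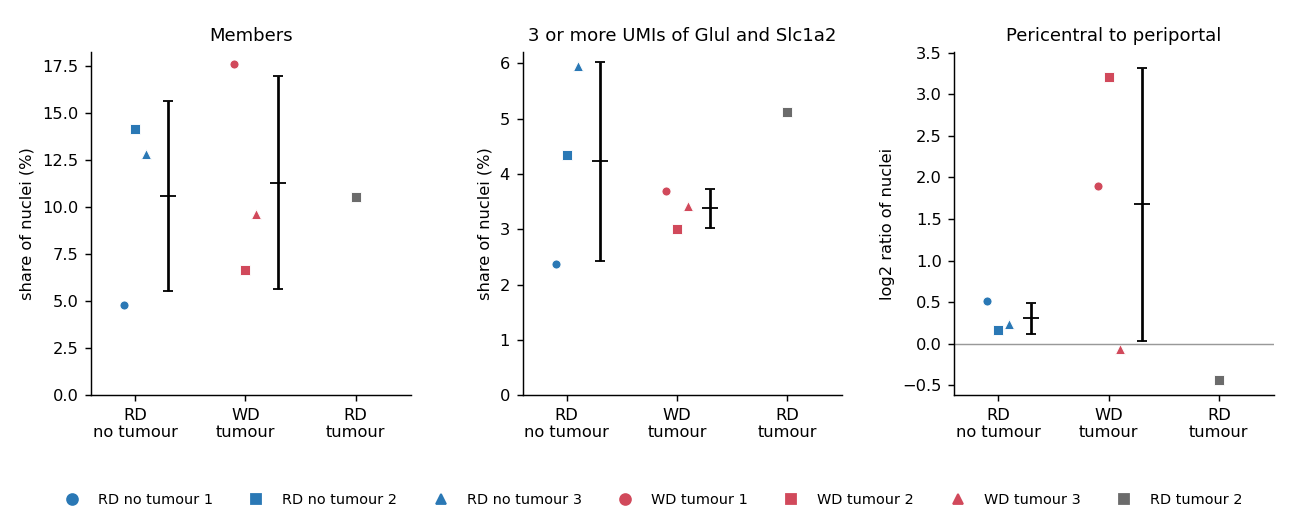
Thinned to 1000 UMIs, 1 point per mouse with mean and SD (black) for groups of 3: share of nuclei that are members (%), share with 3 or more UMIs of Glul and Slc1a2 (%), and log2 ratio of pericentral to periportal nuclei. The groups overlap in all panels, and WD tumour spreads from -0.06 to 3.20 in the ratio.

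No gene passed the test between WD tumour and RD no tumour in all members. Of 13216 genes tested on counts summed per mouse (edgeR quasi-likelihood test, Benjamini-Hochberg adjusted p under 0.05), 0 (0%) were called. At an unadjusted p under 0.05 there were 892 (6.75%), and DESeq2 called 45 higher and 39 lower. The lowest adjusted p was 0.171, for the unnamed transcript E030018B13Rik, at 54.3, 105 and 84.0 CPM in RD no tumour and 10.5, 12.3 and 10.3 CPM in WD tumour. With edgeR, E030018B13Rik passed with no filter on low counts (adjusted p = 0.00855), with the library profile cluster as a block (0.0166) and without RD no tumour mouse 1 (0.0100), and it passed with DESeq2 (2.94e-12). The cluster block also called Cyp2b9, Mup7 and Mup1. Mup7 and Mup1, urinary protein genes of a family of near-identical copies, did not pass the count filter of the edgeR test above, and both were also called, lower, with DESeq2 (adjusted p = 0.0386 and 0.0442) and without RD no tumour mouse 1. In Glul/Slc1a2-high nuclei edgeR also called 0 of 9913 genes (516 at an unadjusted p under 0.05), and DESeq2 called 8 higher and 11 lower. The group values below are therefore descriptions: values for mice, and whether the groups overlap. In all members, 971 genes (7.35%) had all 3 WD tumour mice above all 3 RD no tumour mice and 555 (4.2%) had them below. In Glul/Slc1a2-high nuclei these shares were 5.94% and 4.62%. Counts in gene lists are read against them, and list counts leave out the genes of the rule.

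Gadd45g, Nnmt and Ugdh were among the 10 genes with the smallest p that stood below RD no tumour, none of which passed the edgeR test. DESeq2 called each of these 10, with an adjusted p of 3.64e-06 for Gadd45g, 5.72e-05 for Nnmt and 0.000584 for Ugdh. Gadd45g, a growth arrest and stress gene, was at 199, 215 and 190 CPM in RD no tumour and 65.9, 89.7 and 57.6 CPM in WD tumour. Its log2 fold change was -1.56 ± 0.21 (SE; edgeR adjusted p = 0.44), and RD tumour mouse 2 had 163 CPM. Nnmt, which methylates nicotinamide, was at 384, 479 and 214 CPM against 88.9, 105 and 108 CPM, with 426 CPM in RD tumour mouse 2. Ugdh, which makes the sugar for glucuronidation, was at 170, 227 and 205 CPM against 81.1, 71.3 and 101 CPM, and RD tumour mouse 2 stood above both groups at 374 CPM. For all 3 genes the groups were also apart in Glul/Slc1a2-high nuclei, for instance 333, 497 and 187 against 54.1, 95.5 and 109 CPM for Nnmt. The other genes named on this side were Mastl, AA986860, Tafa2, Trim43c, Dact2, BC049987 and Zfp746.

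Above RD no tumour stood Epas1, the hypoxia-inducible factor HIF-2 alpha, at 213, 192 and 263 CPM in WD tumour against 102, 95.6 and 119 CPM. Its log2 fold change was 1.02 ± 0.20 (SE; edgeR adjusted p = 0.44, DESeq2 adjusted p = 0.0092), and RD tumour mouse 2, at 110 CPM, lay with RD no tumour. Among Glul/Slc1a2-high nuclei it stood at 264, 231 and 264 against 122, 108 and 123 CPM. Alpl, alkaline phosphatase, was at 45.4, 37.3 and 41.2 against 17.8, 18.5 and 17.8 CPM (DESeq2 adjusted p = 0.00842). Acer2 (a ceramidase) and Spred1 (an inhibitor of Ras signalling) likewise stood apart in both sets. DESeq2 called both in all members, and also Fbxl7, Lama2, Itga8, Prkch and Sh2d4a (DESeq2 adjusted p = 0.0067 for Sh2d4a). Sh2d4a and Lpl, the latter described below, are among the 10 genes with the smallest p on this side. Fbxl7, Lama2, Itga8 and Prkch were also among the 10, but with little in the Glul/Slc1a2-high nuclei: Lama2, a laminin chain of connective tissue, was at 29.2, 29.3 and 34.4 CPM in all WD tumour members and at 5.63, 0 and 8.99 CPM in the Glul/Slc1a2-high ones. Summed stellate cell markers were 271 to 391 CPM in WD tumour members and 179 to 370 CPM in RD no tumour members, and 108 to 166 and 118 to 155 CPM in Glul/Slc1a2-high nuclei. Nuclei of other cells held 1049 to 1971 CPM of them. Summed cholangiocyte markers did not overlap in all members, at 161.5 to 171.3 CPM in WD tumour and 49.5 to 155 CPM in RD no tumour, but did in Glul/Slc1a2-high nuclei (62.1 to 89.1 and 35.8 to 86.8 CPM). Summed markers of central vein endothelium, a source of Wnt ligands, overlapped in all members (19.03 to 30.7 and 25.1 to 29.3 CPM) and stood apart in Glul/Slc1a2-high nuclei, at 11.3 to 17.2 CPM in WD tumour and 21.9 to 23.1 CPM in RD no tumour. These sums are near the floor: 3 of the 7 markers had 0 UMIs in each WD tumour mouse, and 2 to 4 in the RD no tumour mice. Sinusoidal endothelial, Kupffer cell and lymphocyte sums overlapped in all members. The part of such RNA in these genes, and in the results that follow, was not tested.

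**Figure D4:**
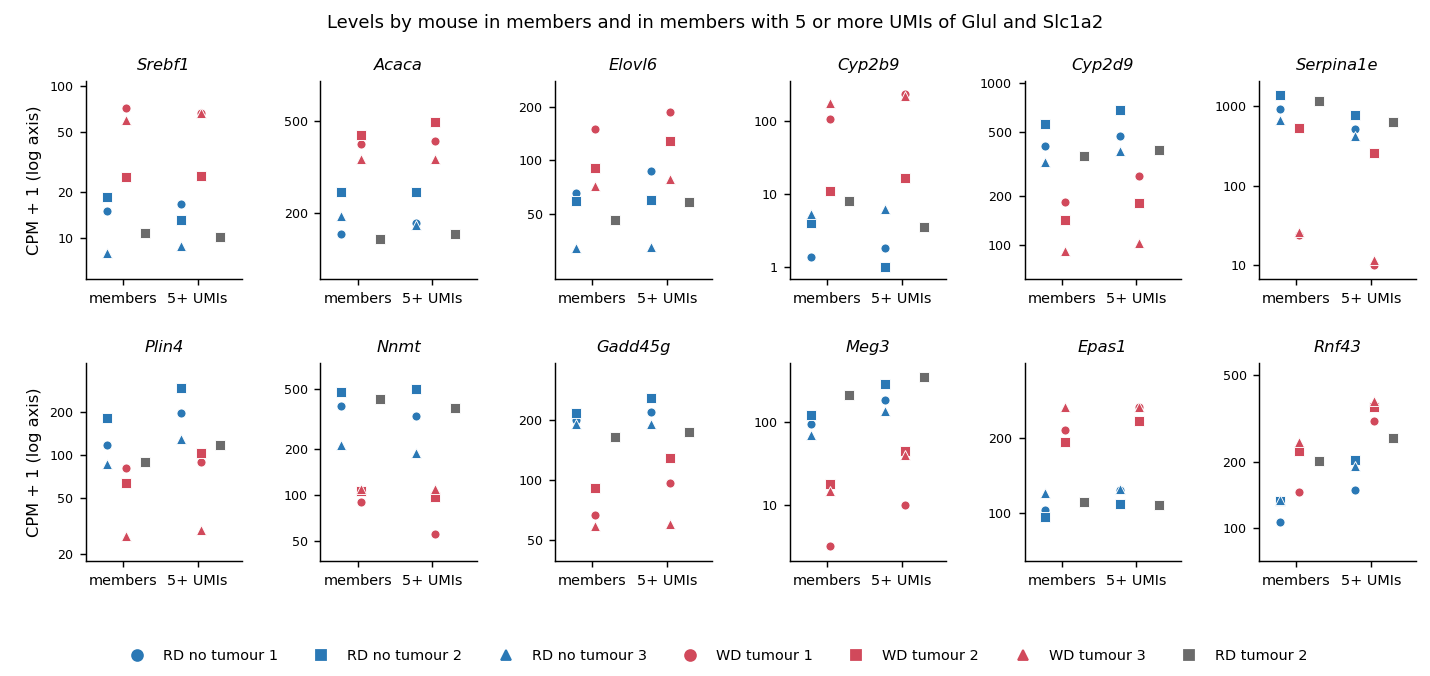
CPM + 1 (log axis) of 12 genes, 1 point per mouse, in all members (left) and Glul/Slc1a2-high nuclei (right) of each panel. The WD tumour points lie apart from the RD no tumour points for Srebf1, Acaca, Cyp2b9, Epas1 and Rnf43 above and for Nnmt, Gadd45g, Meg3, Cyp2d9, Serpina1e and Plin4 below; for Elovl6 in the Glul/Slc1a2-high nuclei they overlap.

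Srebf1, Acaca, Elovl6 and Pklr, which serve the making of fat, stood apart above RD no tumour in all members. Of 19 tested lipogenesis genes, 0 were called, 5 stood apart above and 0 below while the others overlapped, and their median log2 fold change was 0.63 beside -0.02 over all genes. In Glul/Slc1a2-high nuclei 5 of 19 stood apart above, with a median of 0.71, and there Elovl6 and Pklr overlapped. Srebf1, the transcription factor that drives fatty acid synthesis, was at 14.0, 17.5 and 6.95 CPM in RD no tumour and at 71.3, 24.1 and 59.2 CPM in WD tumour. Its log2 fold change was 1.98 ± 0.47 (SE; edgeR adjusted p = 0.54, DESeq2 adjusted p = 0.0241), with 9.72 CPM in RD tumour mouse 2. Acaca, acetyl-CoA carboxylase, was at 161, 246 and 194 against 394, 433 and 341 CPM, and at 154 CPM in RD tumour mouse 2. Elovl6, a fatty acid elongase, was at 64.3, 58.3 and 30.9 against 150, 90.2 and 70.8 CPM, and Pklr, liver pyruvate kinase, at 31.4, 21.6 and 47.5 against 89.6, 58.5 and 52.6 CPM. Scd1, a desaturase that does not stand apart, was at 245, 294 and 207 against 1186, 158 and 508 CPM. WD tumour mouse 2 was the lowest of its group for Srebf1 and Scd1.

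Plin4, Pnpla2 and Hadha stood apart below RD no tumour in both sets of nuclei. Of 15 lipid droplet genes tested in Glul/Slc1a2-high nuclei, 3 stood apart below and 0 above (median log2 -0.20), and of 26 fatty acid oxidation genes 4 stood apart below and 0 above (median -0.35). In all members these counts were 2 below and 1 above of 17, and 1 below and 0 above of 28. Plin4, a droplet coat protein, was at 116, 182 and 85.8 CPM against 80.4, 62.8 and 25.9 CPM in all members, and at 196, 297 and 128 against 89.0, 102 and 28.6 CPM in Glul/Slc1a2-high nuclei. RD tumour mouse 2 stood at 89.0 and 117 CPM. Pnpla2, the main triglyceride lipase, was at 34.9, 33.1 and 36.9 against 30.1, 22.7 and 24.0 CPM. Hadha, of the mitochondrial trifunctional protein, was at 217, 185 and 187 against 132, 130 and 136 CPM in Glul/Slc1a2-high nuclei.

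Among Wnt pathway genes, which include the feedback targets that mark the pericentral zone, 7 of 16 tested in the Glul/Slc1a2-high nuclei stood apart above RD no tumour and 0 below (median log2 0.52). In all members it was 3 of 19 (median 0.29), and 0 were called in either. Rnf43, which removes Wnt receptors, was at 148, 203 and 192 CPM in RD no tumour and 305, 354 and 377 CPM in WD tumour in Glul/Slc1a2-high nuclei. Its log2 fold change there was 0.91 ± 0.21 (SE; edgeR adjusted p = 0.61), with 257 CPM in RD tumour mouse 2. Axin2 was at 28.4, 38.5 and 38.8 against 41.7, 67.1 and 60.5 CPM, and Tbx3 at 100, 92.1 and 74.0 against 115, 176 and 202 CPM. Lgr5 overlapped, at 362, 225 and 299 against 231, 462 and 319 CPM. In all members Axin2, Tbx3 and Lgr5 all overlapped. Rnf43 was apart there too (105, 131 and 134 against 145, 223 and 247 CPM), as was Tcf7l1, a transcription factor of the pathway (9.91, 15.5 and 25.3 against 35.4, 51.0 and 38.8 CPM). Apc stood apart in all members by little, at 112, 99.4 and 114 against 119, 118 and 129 CPM, but overlapped in Glul/Slc1a2-high nuclei, where its fitted log2 value was -0.04 (0.12 in all members). The nuclei were chosen on Glul and Slc1a2, themselves Wnt targets, and the part of that choice in these values was not tested.

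Of 15 tested male-biased genes, 0 were called, 5 stood apart below and 0 above in WD tumour members, and 1 of the 15 had a higher fitted value (median log2 -1.07). Of 12 female-biased genes, 0 were called, 2 stood apart above and 0 below, and 11 had a higher fitted value (median 0.74). In periportal nuclei the medians of these lists were -1.59 and 1.46, beside -0.01 over all genes, and 0 genes were called. Within Glul/Slc1a2-high nuclei 3 of 13 male-biased genes stood below, and of 10 female-biased genes 1 stood above and 1 below. Cyp2d9, a male-biased P450, was at 408, 562 and 323 CPM in RD no tumour and at 184, 142 and 90.4 CPM in WD tumour. Its log2 fold change was -1.67 ± 0.34 (SE; edgeR adjusted p = 0.45, DESeq2 adjusted p = 0.00351), and RD tumour mouse 2, at 353 CPM, lay with RD no tumour. Serpina1e, a male-biased antitrypsin gene, was at 916, 1359 and 667 against 23.2, 528 and 25.1 CPM, with WD tumour mouse 2 far above the other members of its group. Slco1a1, an organic anion carrier, was at 282, 358 and 395 against 150, 233 and 152 CPM in all members but overlapped in Glul/Slc1a2-high nuclei. Cyp4a12b was at 4.10, 30.3 and 15.6 against 2.23, 2.83 and 2.11 CPM (DESeq2 adjusted p = 0.0195).

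On the female-biased side, Cyp2b9, a P450 that adult males normally keep low, was at 0.342, 2.92 and 4.25 CPM in RD no tumour and at 104, 9.91 and 172 CPM in WD tumour. Among Glul/Slc1a2-high nuclei it was at 0.789, 0 and 5.23 CPM (13 UMIs in all) and at 230, 15.5 and 212 CPM (476 UMIs). RD tumour mouse 2 had 6.90 and 2.44 CPM. Its log2 fold change in all members was 5.07 ± 1.07 (SE; edgeR adjusted p = 0.46), and WD tumour mice 1 and 3 are the high ones. With the library profile cluster as a block it passed the test, at 5.16 (edgeR adjusted p = 0.00252), and it also passed with DESeq2 (adjusted p = 0.0168). Over all alternatives its adjusted p ran from 0.00252 to 0.999. Abcd2, a peroxisomal fatty acid transporter, was at 2.39, 2.01 and 5.02 against 18.0, 8.50 and 18.0 CPM (DESeq2 adjusted p = 0.0232). Sult1e1, an estrogen sulfotransferase listed as female-biased, went against the list in Glul/Slc1a2-high nuclei, at 489, 283 and 526 against 98.0, 65.8 and 238 CPM.

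Few drug and bile acid genes, part of the classic pericentral output, stood apart in all members or in the Glul/Slc1a2-high nuclei. Of 38 tested xenobiotic genes 2 stood apart above and 1 below in all members (median log2 -0.16), and of 37 in Glul/Slc1a2-high nuclei 2 above and 2 below (median 0.05). Of 23 bile acid genes 0 stood above and 3 below in all members, with 5 of the 23 fitted higher (median -0.22); in Glul/Slc1a2-high nuclei 1 stood above and 0 below, with 10 fitted higher (median -0.04). Cyp2c70, which makes muricholic acids, was at 255, 46.6 and 126 CPM in RD no tumour and 404, 354 and 482 CPM in WD tumour, with 50.2 CPM in RD tumour mouse 2. Ugt2b5, a glucuronosyltransferase, was at 226, 320 and 315 against 191, 116 and 182 CPM. Nr0b2, the repressor SHP that bile acid signalling induces, was at 3.95, 9.39 and 24.4 against 75.5, 37.4 and 98.9 CPM in Glul/Slc1a2-high nuclei, but overlapped in all members. Cyp7b1 and Baat stood apart below in all members only, the former at 947, 1003 and 1492 against 462, 885 and 701 CPM. Cyp7a1, the rate-limiting enzyme of bile acid synthesis, overlapped, at 383, 624 and 670 against 787, 131 and 786 CPM. Of 23 sterol genes, Hsd17b7 alone stood apart, below, in all members (median -0.07), and 0 of 21 in Glul/Slc1a2-high nuclei (median 0.03).

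Acute-phase genes mostly had lower fitted values in WD tumour, but no gene of the list stood apart and single mice differed widely. Of 24 tested, 0 stood apart and 1 had a higher fitted value in WD tumour (median log2 -0.86). In Glul/Slc1a2-high nuclei 0 of 24 stood apart (median -0.82). Saa1, serum amyloid A, was at 11405 CPM in RD no tumour mouse 1 beside 314 and 970 CPM in mice 2 and 3, and at 119, 920 and 95.1 CPM in WD tumour mice 1 to 3. Mice RD no tumour 1 and WD tumour 2 were also the highest of their groups for Orm2 and Lcn2, and they are the pair whose library profiles clustered together. Over the alternatives the median of the list ran from -1.48 to 0.06, the latter without RD no tumour mouse 1.

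The remaining lists held few genes that stood apart. Of 20 tested NRF2 and oxidative stress genes only Tkt stood apart, above; of 22 unfolded protein stress genes Atf3 stood above and Asns below. Asns, asparagine synthetase, was at 5.47, 11.5 and 20.7 CPM in RD no tumour against 0.446, 1.42 and 0.529 CPM in WD tumour (7 UMIs in all 3 mice), with 15.4 CPM in RD tumour mouse 2. Of 11 tested fetal and tumour genes only Lpl stood apart, at 4.44, 7.86 and 8.11 against 23.4, 83.1 and 44.4 CPM, and 14 of the 25 were too low to test. In all members DESeq2 called Asns (adjusted p = 0.00043) and Lpl (9.95e-05). Of 23 urea, ammonia and glutamine genes, 2 stood apart above and 0 below (median log2 0.05). Among Glul/Slc1a2-high nuclei the counts above and below were 1 and 0 of 18 for the NRF2 list (median -0.14), 0 and 0 of 15 for unfolded protein stress (median -0.13) and 1 and 0 of 21 for urea, ammonia and glutamine (median -0.06). Only 2 fetal and tumour genes could be tested there, with a median of -0.76 beside 0.70 for the 11 in all members.

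The same naming rule, applied to the Glul/Slc1a2-high nuclei after that class was set, gave further genes. Among them Gna14, Phlda1 and Clec4f overlapped between the groups in all members. Pcdh11x, a protocadherin, was at 45.8, 25.5 and 67.5 CPM in RD no tumour and 2.25, 2.58 and 4.09 CPM in WD tumour (9 UMIs), a log2 fold change of -3.89 ± 0.51 (SE; edgeR adjusted p = 0.22). RD tumour mouse 2 had 6.72 CPM. DESeq2 called Pcdh11x in these nuclei (adjusted p = 9.05e-05), and edgeR did with the library profile cluster as a block (adjusted p = 0.0498). Gramd1b, a carrier of cholesterol to the endoplasmic reticulum, was at 3.95, 10.3 and 10.9 against 45.1, 42.6 and 33.5 CPM, with 1.83 CPM in RD tumour mouse 2. Efna5, an ephrin, was at 175, 271 and 242 against 90.1, 59.4 and 87.4 CPM. Pdk1, a kinase that holds back pyruvate oxidation, was at 58.4, 68.4 and 46.6 against 114, 123 and 114 CPM. Meg3, an imprinted long noncoding RNA, was at 184, 286 and 133 against 9.01, 43.9 and 39.2 CPM, and its neighbour Rian at 27.6, 20.1 and 21.8 against 3.38, 9.04 and 9.80 CPM. For Meg3, RD tumour mouse 2 stood highest of all, at 342 CPM. The others named were Pitpnm2, Gna14, Dio3os and Phlda1 above, and Aldh1a7, Serpina3k and Clec4f below, the last a Kupffer cell gene at 21.3, 22.8 and 19.6 against 7.88, 10.3 and 6.54 CPM. Summed Kupffer cell markers in these nuclei were 162 to 320 CPM in RD no tumour and 179 to 224 CPM in WD tumour.

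The gap between zones itself differed between the groups for 20 of 14465 genes (edgeR quasi-likelihood interaction with each mouse as a block, adjusted p under 0.05). The log2 ratio of pericentral to periportal nuclei was lower in WD tumour for 14 genes (0.0968%) and higher for 6 (0.0415%). All 14 were pericentral in RD no tumour, and for 8 of them the WD tumour mice all stood above the RD no tumour mice in periportal nuclei while the groups overlapped in members. Both counts follow in part from picking genes by this ratio in the same mice, and the shares over all genes were not computed. The margin of WD tumour mouse 2, with 364697 UMIs summed over its periportal nuclei, can be small. For Aldh3a2 it had 27.4 CPM against 23.6 CPM in RD no tumour mouse 2. Aldh3a2, a fatty aldehyde dehydrogenase (chromosome 11, 61223417 to 61267464, GRCm38), was at 87.2, 201 and 224 CPM in members of RD no tumour and 291, 107 and 221 CPM in those of WD tumour. In periportal nuclei it was at 13.6, 23.6 and 21.9 against 159, 27.4 and 135 CPM. The interaction was -2.14 ± 0.22 on the log2 scale (SE; edgeR adjusted p = 0.00101), and -2.29 with Glul/Slc1a2-high nuclei as the pericentral side (adjusted p = 0.00168). Tox, an HMG-box factor best known from T cells, was at 420, 1099.7 and 912 against 1013, 540 and 1034 CPM in members and at 40.7, 75.7 and 29.0 against 353, 68.5 and 344 CPM in periportal nuclei. Tenm3, a teneurin, was at 34.8, 40.5 and 25.1 against 226, 93.2 and 213 CPM in periportal nuclei, and Pparg, the fat-storage nuclear receptor, at 12.8, 2.74 and 9.19 against 55.2, 63.1 and 31.4 CPM. Tenm3 and Pparg had interactions of -2.22 ± 0.28 and -2.21 ± 0.32 (SE; edgeR adjusted p = 0.00552 and 0.0101).

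Female-biased Slc22a27 and Fmo2 were also among the 14. Slc22a27, an organic anion transporter of the Slc22 family, was at 3.21, 0.484 and 4.19 CPM in RD no tumour periportal nuclei and 28.0, 8.23 and 64.7 CPM in WD tumour ones, with an interaction of -3.15 ± 0.33 (SE; edgeR adjusted p = 0.00101). Its values in RD no tumour mouse 2 and WD tumour mouse 2 rest on a few UMIs each. The summed periportal counts there were 6193259 and 364697 UMIs. Fmo2, a flavin monooxygenase, was at 34.0, 52.3 and 40.1 against 198, 57.6 and 259 CPM. Esrrg was at 1.34, 4.36 and 8.70 against 44.6, 2.74 and 39.2 CPM, so WD tumour mouse 2 lay within the RD no tumour range. Tafa2 and Ctnna3 differed on the pericentral side instead: Tafa2 was at 57.8, 96.7 and 131 CPM in RD no tumour members and 29.2, 15.6 and 19.8 CPM in WD tumour ones, with 1.87 to 4.19 CPM in periportal nuclei of both groups. The others were Gm49959, Gm13775, Airn, Osbpl3 and Nxph1. The ranges of the zone ratio overlapped between the groups for Esrrg, Slc22a27, Nxph1, Ctnna3 and Gm13775.

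The 6 genes with a higher pericentral to periportal ratio in WD tumour were Gask1a, Rsad2, Ssbp2, Zbtb7c, Slc17a8 and Pygl. Pygl, liver glycogen phosphorylase, was at 85.5, 178 and 133 against 254, 162 and 161 CPM in members and 132, 317 and 213 against 235, 170 and 161 CPM in periportal nuclei. Its zone log2 ratio was -0.71 ± 0.11 in RD no tumour and 0.02 ± 0.09 in WD tumour (SD, n = 3 each; interaction 0.80 ± 0.14 SE, edgeR adjusted p = 0.0313). Rsad2, an interferon-induced antiviral gene, was at 8.55, 5.48 and 5.22 against 11.1, 43.0 and 23.3 CPM in members, and its periportal value in WD tumour rests on 7 UMIs. Of the 6, Pygl alone was also called with Glul/Slc1a2-high nuclei as the pericentral side.

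Over 32 pericentral markers outside the rule the interaction was positive for 13, its median was -0.07, beside 0.03 over all genes, and Aldh3a2 was the 1 called. Over 22 Wnt genes it was 0.18, with 0 called. The calls lean on single mice: without WD tumour mouse 1, 3 of the 20 were called, without WD tumour mouse 3 none of them was (1 other gene passed), and without RD no tumour mouse 1 there were 57 calls, all 20 among them. Periportal nuclei were of like depth in both groups (medians 4274 to 4672 UMIs in WD tumour, 3570 to 5112 in RD no tumour), with mitochondrial shares of 1.02 to 2.64% and 0.583 to 1.65%. Their summed counts were lower in WD tumour, down to 364697 UMIs in mouse 2. In the RD tumour mouse, which had no part in the test, the zone log2 ratios were 2.81 for Aldh3a2, 2.61 for Tox, 2.33 for Tenm3, 2.46 for Pparg and -0.24 for Pygl. For Aldh3a2 this lies within the RD no tumour range of 2.59 to 3.29 and above the WD tumour range of 0.71 to 1.92.

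**Figure D5:**
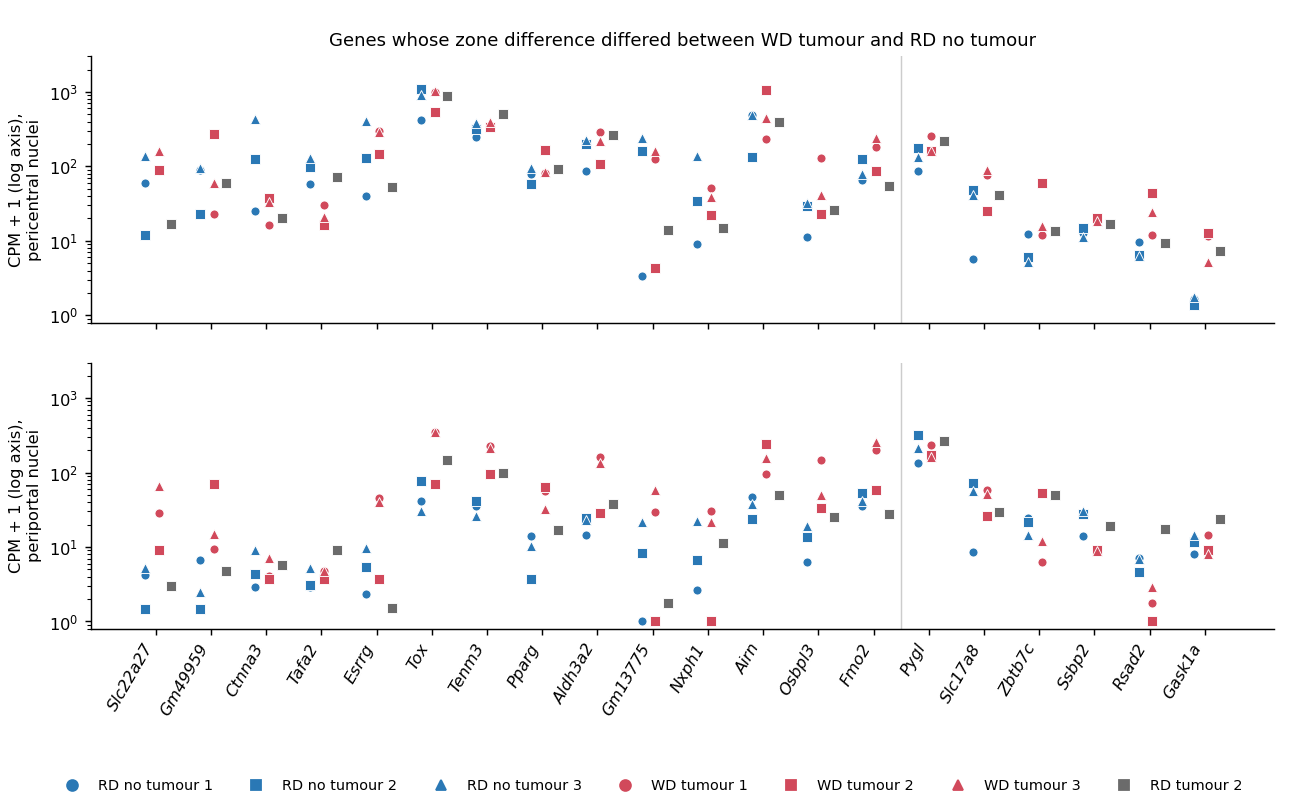
CPM + 1 (log axis) of the 20 genes whose zone difference differed between the groups, in pericentral (top) and periportal (bottom) nuclei, 1 point per mouse; genes left of the line have a lower pericentral to periportal ratio in WD tumour. For Aldh3a2, Tox and Tenm3 WD tumour mice 1 and 3 lie above all RD no tumour mice in the bottom panel, with Tox at 353 and 344 CPM.

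RD tumour mouse 2, on reversed diet but with tumours, did not side with either group throughout. Of the 971 genes that stood above RD no tumour in WD tumour members, its value lay in the RD no tumour range for 309 (31.8%), in the WD tumour range for 265 (27.3%) and in neither for 397 (40.9%). Of the 555 below, these counts were 205 (36.9%), 74 (13.3%) and 276 (49.7%). The ranges were fixed by the other mice, so these shares describe 1 mouse and carry no test.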

How the data were processed

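Nuclear RNA of 8 mouse livers was sequenced with the 10x Chromium 3' kit, version 3.1, per the labels' protocols. The deposited values are UMI counts per gene and barcode, made with Cell Ranger 7.0.0 on mm10 per the submitters' processing notes; intron counting and cell calling are not given in the sources used here. Each mouse is 1 replicate. Counts of the nuclei picked by the rule were summed per mouse, filtered with filterByExpr, scaled by TMM and tested with edgeR 4.0.16 (quasi-likelihood, Benjamini-Hochberg threshold 0.05) in R 4.3.3, with the 3 WD tumour and 3 RD no tumour mice in the fit. DESeq2 1.42.0 was an alternative. The interaction used members and periportal nuclei of the same mice. CPM were computed from summed counts, and log2 ratios used a pseudocount of 1. The test scripts were tested on simulated data. Shares were compared after thinning to 1000 UMIs, which drops shallower nuclei. Doublet calls were kept. Gene positions are from GENCODE vM21 (GRCm38).

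The members and gene lists were chosen with earlier results of these data known. Named genes were, per list, up to 4 with the largest fold change among those whose groups did not overlap; over all genes, the 10 smallest p in each direction with a mean of 20 CPM or more; the called interaction genes, up to 10 each way; and the 15 most zoned genes each way. Scd1, Cyp7a1, Lgr5, E030018B13Rik, Mup1, Mup7, the acute-phase genes, and Fmo2, Osbpl3, Airn and Nxph1 were named after their values were seen, as was chosen the split by Glul and Slc1a2 UMIs. The replicate numbers were not used to pair the mice in the main tests. A gene that the rule named is not reported here.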

Additional observations from a re-analysis of the deposited data

Results flagged for a closer look

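The difference between WD tumour and RD no tumour was not the same in pericentral and periportal nuclei for 20 of 14465 genes, by the test of that difference itself (edgeR interaction, adjusted p under 0.05). The most extreme by adjusted p were Aldh3a2, with an interaction of -2.14 on the log2 scale, and Slc22a27, with -3.15 (adjusted p = 0.00101 for both). For Slc22a27 the ranges of the zone ratio overlapped between the groups, and its periportal values in RD no tumour mouse 2 and WD tumour mouse 2 rest on a few UMIs. None of the 20 was called without WD tumour mouse 3, and 7 of the 20 were called with the rule applied after thinning to 1000 UMIs. WD tumour mouse 2 contributed 71 periportal nuclei to this test.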

How the results depend on the processing

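The count of called genes between WD tumour and RD no tumour, 0 in all members, was 84 with DESeq2, 1 with no filter on low counts, 4 with the library profile cluster as a block, and 0 to 3 with 1 mouse left out. In Glul/Slc1a2-high nuclei, a class added after seeing the data, it was 19 with DESeq2, 10 with that block and 0 to 1 with 1 mouse left out. The 20 interaction calls became 118 with no filter and 56 with the cluster block, and all 20 were among the calls in both. With the rule applied after thinning 11 genes were called, and 7 of the 20 were among them. With Glul/Slc1a2-high nuclei as the pericentral side 20 genes were called, and 12 of the 20 were among them. There were 1 to 57 calls with 1 mouse left out (3 without WD tumour mouse 1, 1 without WD tumour mouse 3, 57 without RD no tumour mouse 1). The cause was not tested.

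The log2 difference in the share of members, 0.12, was -0.23 with 3 or more thinned UMIs of Glul and Slc1a2 and -0.37 to 0.44 with 1 mouse left out (-0.26 without WD tumour mouse 1, -0.37 without RD no tumour mouse 1). The difference in the pericentral to periportal ratio kept its direction, at 0.61 to 2.25. Signs turned for Ctnna3 (interaction 0.092 with the rule after thinning) and for Apc in Glul/Slc1a2-high nuclei (-0.0354, -0.0276 with the cluster block and -0.0286 with DESeq2). Of 899 group values of named genes under the alternatives, 865 kept their direction and side of the threshold, 31 passed it and 3 turned. Of 300 interaction values, 215 kept both, 84 lost the call and 1 turned. Of 280 list medians, 275 moved by less than the spread between RD no tumour mice.

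With the replicate number as a block, 0 genes were called in either set. Deviations of same-numbered mice from their group means correlated at -0.43, -0.40 and 0.27. With groups of 3 these values are tied to each other, so they cannot show whether same-numbered mice share more than a number. Groups of 3 mice, and 71 periportal nuclei in WD tumour mouse 2, limit what could be detected.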
